A study of Mus musculus with 22 samples.

Results

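Narrow sites of open chromatin that were present in every library of a mouse brain ATAC-seq series are described here. ATAC-seq cuts accessible DNA with a transposase, so that promoters, enhancers and insulators appear as peaks of fragments. Members were chosen by the deposited peak calls alone: mouse chromosomes 1 to 19 (GRCm38) were divided into bins of 500 bp, a bin counted as open in a library when a peak covered at least 100 bp of it, adjacent bins open in all 22 libraries were joined, and joined regions of 1000 bp or less were kept. This gave 86457 narrow regions among 92286 regions open in all libraries and 406190 joined regions open in at least 1 library. Presence in every library, and hence a peak of some strength in every library, is therefore a property of the selection and not a result.

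The libraries came from the hippocampus and the frontal cortex of 11 adult male wild-type C57BL/6J mice, with both tissues taken from each animal. All animals, controls included, had drunk corticosterone (CORT) for 7 days, had been injected with the organophosphate diisopropyl fluorophosphate (DFP) on day 8 and had received further intermittent CORT over 5 weeks, a treatment that models exposures of Gulf War Illness. The animals then received saline, with tissue taken at 6 h (2 animals), or the bacterial endotoxin lipopolysaccharide (LPS), with tissue taken at 6, 12 or 24 h (3 animals at each time). No animal without CORT and DFP is among the libraries, and saline was sampled at 6 h only, so that LPS at 12 and 24 h differs from saline in time as well as in LPS. A further saline animal had been left out by the submitters for low depth. The libraries were made from 20 to 30 mg of frozen tissue, which holds all cell types of the dissected block. A weaker peak in such bulk tissue can reflect fewer cells with an open site or less access per cell, and the 2 cannot be told apart.

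The libraries held 200695 to 300748 distinct peak intervals on chromosomes 1 to 19, and read depth is not known from the peak files. Between 30.4% and 45.3% of a library's intervals touched a narrow region. The bins that were open in every library of one tissue and in no library of the other were used to check the tissue labels, with marker lists chosen after the data had been seen. Around 8 hippocampal genes (the gene with 50 kb on each side), among them the transcription factor genes Zbtb20 and Prox1, 45 such bins were of the hippocampus and 8 of the frontal cortex. Zbtb20 alone held 22 of these 45 and 2 of the 8, and Wfs1 (0 and 2) and Zbtb16 (3 and 4) went the other way. Around 7 cortical layer genes the numbers were 9 and 11, and Rorb held 7 of these 11 and 0 of the 9. For comparison, 15685 hippocampal and 9353 cortical bins of this kind were found on all the chromosomes together, and 8 striatal genes had 7 and 11.

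Accessible sites are of several kinds. Promoters of widely used genes tend to lie in CpG-rich DNA that carries few nucleosomes in most cells, and they are bound by general factors such as NF-Y, which recognizes the CCAAT box, NRF1, YY1, ETS proteins and SP/KLF proteins. Enhancers lie away from gene starts and are more often particular to a cell type. Sites of the insulator protein CTCF can be open in many cell types.

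The strongest narrow regions that hold a transcription start are introduced first by their sequence, because the results on promoters turn on a short motif in them. Each line gives the last 120 bases, or 120 bases farther upstream for Mcm3, before the RefSeq start (GRCm38.p6), 5′ to 3′ on the gene's strand, and the capitals mark the letters CCAAT or their reverse complement ATTGG. Mlf1, Zfp950 and Ticrr were among the 12 narrow regions of highest median rank and share no run of 30 bases with another promoter. Spc25 and Mcm3 were added after their values were seen, as examples with the motif. Not every strong start has it so near: the 120 bases before BC002059 and Sgo2a, which also ranked among the highest, hold no CCAAT, although their full 300-base windows do. The Mlf1 sequence lies at chr3:67373977-67374096 on the plus strand, Zfp950 at chr19:61140841-61140960 on the minus strand, Ticrr at chr7:79660076-79660195 on the plus strand, Spc25 at chr2:69206214-69206333 on the minus strand and Mcm3 at chr1:20820344-20820463 on the minus strand.
Mlf1: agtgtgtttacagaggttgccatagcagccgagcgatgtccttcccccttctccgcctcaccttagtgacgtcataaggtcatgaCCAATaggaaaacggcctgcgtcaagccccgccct
Zfp950: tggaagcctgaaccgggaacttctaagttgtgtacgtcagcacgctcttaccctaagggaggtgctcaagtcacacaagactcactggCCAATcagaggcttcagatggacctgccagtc
Ticrr: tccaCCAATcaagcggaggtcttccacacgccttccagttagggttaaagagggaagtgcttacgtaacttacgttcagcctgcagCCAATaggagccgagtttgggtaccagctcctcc
Spc25: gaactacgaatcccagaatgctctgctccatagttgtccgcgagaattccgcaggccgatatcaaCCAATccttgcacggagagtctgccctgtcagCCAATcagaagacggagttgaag
Mcm3: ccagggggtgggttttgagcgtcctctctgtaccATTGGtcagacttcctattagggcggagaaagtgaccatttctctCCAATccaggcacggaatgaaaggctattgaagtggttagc

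The 129065 bins open in all 22 libraries formed a separate peak in the distribution of bins over libraries. Only 21906 bins were open in 21 libraries, 15780 in 20 and 13524 in 19, whereas 170288 were open in 1. A smaller rise stood at 11 libraries, with 37840 bins against 22109 at 10 and 19497 at 12. Among these 37840 were the 15685 bins open in every hippocampal and no cortical library and the 9353 of the reverse kind. Of the bins just outside the rule, open in 21 libraries, the missing library was most often the LPS 6 h replicate 4 of the hippocampus (3502 bins) and least often the LPS 24 h replicate 4 of the frontal cortex (180 bins).

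**Figure D1:**
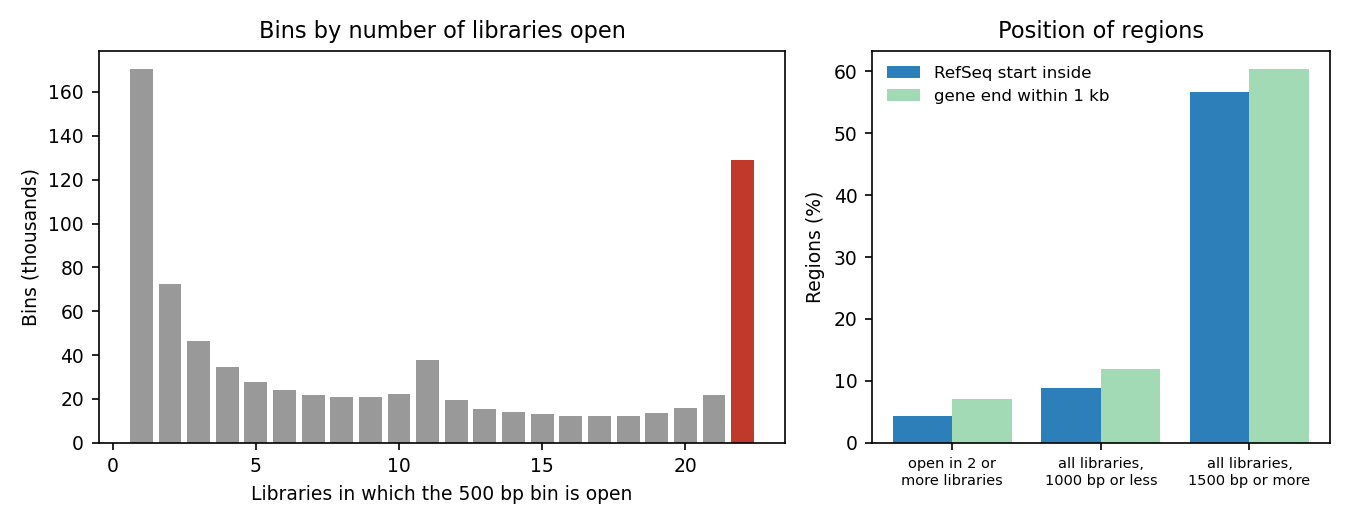
Left, bars give the number of 500 bp bins (axis in units of 1000) by the number of libraries in which the bin was open, with the 129065 bins open in all 22 libraries in red. Right, bars give the percentage of regions with a RefSeq start inside or a protein-coding gene end within 1 kb, for regions open in 2 or more libraries, narrow regions and wide regions, and the wide regions stand far above the other two.

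Most narrow regions lay away from gene starts. A RefSeq start lay inside 7360 of them, which is 8.82% of the 83456 on chromosomes that the promoter table covers (chromosome 18 is not in it), and a further 4736 lay within 1 kb of another protein-coding gene end. Inside gene bodies, away from the ends, lay 41350 narrow regions (47.8%), and 33011 (38.2%) lay elsewhere. The median distance to the nearest start was 25.3 kb, and the median gap between neighbouring narrow regions was 12.0 kb. Counted together, 10317 narrow regions (11.9%) had a protein-coding gene end within 1 kb.

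Wide regions, the 5829 always-open regions of 1500 bp or more, were placed differently: 56.6% held a start and 60.3% had a gene end within 1 kb. Regions open in 2 or more libraries, which include the narrow ones, held a start in 4.31% of cases. The width limit fell within this gradient. Members of 500 bp held a start in 3.73% of cases, members of 1000 bp, just inside the limit, in 22.2%, and regions of 1500 bp, just outside, in 54.6%. The median rank percentile, explained next, was 68.0 just inside and 68.8 just outside the limit. Position relative to genes took no part in the rule, and since regions are not independent replicates these shares are given without a test.

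Strength was compared as a rank, because the fold enrichment that the authors' peak caller gives is the peak's own value within its library. In each library the 92286 always-open regions were ordered by their highest fold, and the place was written as a percentile, with 100 the strongest. The median fold at narrow regions was 4.85 to 6.59 over the 22 libraries, with the lowest single values between 1.38 and 1.61 and the highest between 21.2 and 26.4. Among all peak summits of a library, narrow regions had a median percentile of 74.0 to 80.8 and wide regions of 85.5 to 87.9. In its weakest library a narrow region had a median −log10 q of 7.53, and in 4005 members (4.63%) that library's q was above 0.05.

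The position of the summit was reproducible from library to library, and more so at strong sites. The SD of the summit position over the 22 libraries had a median of 18.2 bp, and 55.7% of narrow regions had an SD of 20 bp or less. By median rank, the median SD was 25.9 bp in the class of 0 to 25, 16.7 bp at 50 to 75 and 9.27 bp in the top 1% (474 regions). Between the tissues the median summit moved by a median of 10 bp, and by over 100 bp in 4.28% of members. The share of members holding a start went from 4.7% in the class of 0 to 25 to 38.0% in the top 1%.

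**Figure D2:**
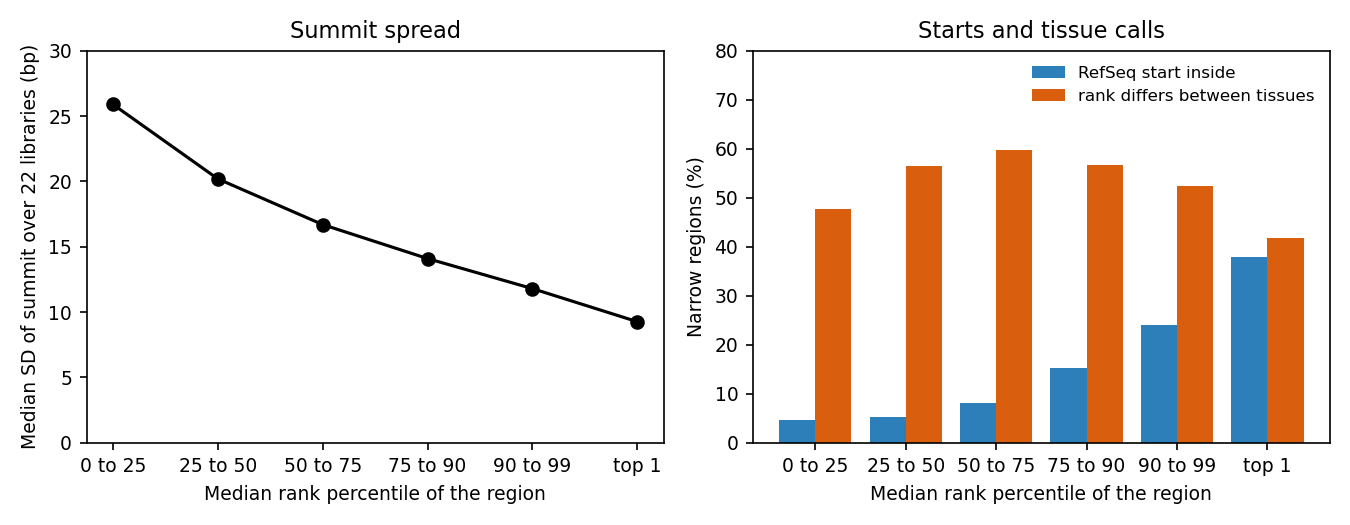
Narrow regions by median rank percentile over the 22 libraries (top 1 is the strongest 1%). Left, points give the median SD of the summit position in bp, which goes from 25.9 to 9.27. Right, bars give the percentage of regions holding a RefSeq start, which goes from 4.7 to 38.0, and the percentage whose rank differed between the tissues, which is 41.8 in the top 1.

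The 12 narrow regions of highest median rank were near the top of the list in every library. At chr3:5860001-5861000, 281405 bp from Pex2, the nearest protein-coding gene, the fold was 20.4 in the lowest library, 23.4 in the median and 26.4 in the highest. The second, chr1:195241501-195242000, lay 64621 bp from Cr2 and had folds of 20.6, 22.6 and 25.8. These 2 regions hold no RefSeq start, and no sequence is printed for them.

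Of the other 10, Mlf1 (chr3:67373501-67374500), which encodes a factor named for its fusion in myeloid leukemia, had folds from 17.1 to 22.9. The start region of Ticrr (chr7:79659501-79660500), a regulator of DNA replication origins, ranged from 15.9 to 21.1, and that of the zinc finger gene Zfp950 (chr19:61140501-61141500) from 15.6 to 20.6. The region at the zinc finger gene Zfp975 (chr7:42692501-42693500), which also holds the start of Gm38998, ranged from 15 to 21.6. Regions at the starts of Gm9222, of 9430037G07Rik with Gm26567, and of the zinc finger locus BC002059 were in the same group. The promoter windows of Gm9222, Gm26567, BC002059 and Gm38998 share a run of 30 bases with a promoter elsewhere, so that reads from near-identical copies could have been divided between them or counted at either. The remaining 3 lay 264293 bp from Lmo7, 2784 bp from 1810024B03Rik and 201165 bp from Cfap20dc. Summit SDs over all 22 libraries were 4.46 to 12.7 bp in these 12 regions.

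The RefSeq promoter table gives 300 bases for each start, 250 before and 50 after it, for 31396 starts on these chromosomes. Of them, 9077 (28.9%) lay in a narrow region, 4557 (14.5%) in a wide one, 5414 in bins open in some libraries only and 12348 in bins open in none. Windows at narrow regions had a median GC content of 60.3% and a median CpG observed/expected ratio of 0.744. Both lay below the wide class (64.7% and 0.827) and above the starts open in no library (46.3% and 0.185). The GC box GGGCGG was found on either strand in 60.7% of narrow, 71.7% of wide and 9.0% of never-open windows, against 36.0% of all windows.

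NRF1 letters, GCGCNTGCG, were in 12.8% of windows at narrow regions, in 15.3% at wide regions and in 0.567% of those never open (6.37% of all windows). For the ETS letters CCGGAAGT the shares were 8.64%, 6.39% and 0.794% (3.95% of all). YY1 letters, AAGATGGCG, stood at 2.73%, 2.98% and 0.332% (1.39% of all). The TATA letters TATAAA ran the other way, with 6.63%, 4.98% and 22.1% (13.6% of all), and so did the AP-1 letters TGANTCA, with 5.38%, 3.31% and 10% (7.84% of all). The CTCF consensus was in 2.1% of narrow, 1.56% of wide and 0.0972% of never-open windows (0.994% of all). A match of letters is a description and not a bound site.

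Among the members CCAAT followed strength, whereas its share was similar at narrow and never-open starts. The longer CCAATC was in 21.2% of windows at narrow regions, 19.8% at wide ones and 12.8% at those never open (16.0% of all). These classes also differed in GC content, and its part in such shares was not tested. CCAAT itself was in 39.1% of windows at narrow regions, 34.8% at wide ones and 39.2% at those never open, against 37.3% of all windows. With 1 start for each member (the start nearest the summit, 7360 members), the share was 28.3% at rank 0 to 25, 33.1% at 25 to 50, 37.2% at 50 to 75, 40.1% at 75 to 90, 49.0% at 90 to 99 and 73.7% in the top 1% (171 members). At least 2 boxes were in 7.71% of windows in the lowest class and 39.8% in the top 1%. The median rank was 67.6 in members with no box, 74.3 with 1, 80.9 with 2 and 86.5 with 3, and it was lower again in the 89 members with 4 (83.4) and the 37 with 5 or more (77.7).

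ETS letters went from 2.76% at rank 0 to 25 to 13.5% in the top 1%, while NRF1 letters went from 5.29% to 17.6% at 75 to 90 and stood at 8.77% in the top 1%. The GC content of the top 1% (median 55.7%) was below that of all these members (60.0%). Of 2080 strings of 6 bases (each with its reverse complement), CCAATC differed most between the top 1% and the other members, with 53.2% against 20.4%, and 5 of the 15 strings with the largest differences held CCAAT, of 8 such strings in all. Without promoters that share a 30-base run with another promoter, CCAAT was in 72.4% of the remaining 145 windows of the top 1%. The same windows give each of these shares, so they are not independent of each other, and no test was made.

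Summits of narrow promoter regions lay just upstream of the start, at a median position of -31 bp relative to it (quartiles -74.5 and 8 bp), and in the top 1% at -46.5 bp. CCAAT letters lay within 50 bp of the summit in 59.3% of the top 1% (96 of 162 members whose summit was in the window) and in 15.8% at rank 0 to 25. Wide regions had a median position of -41 bp with a broader spread, the 10th and 90th percentiles being -295 and 200 bp, against -138 and 100 bp in narrow regions.

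**Figure D3:**
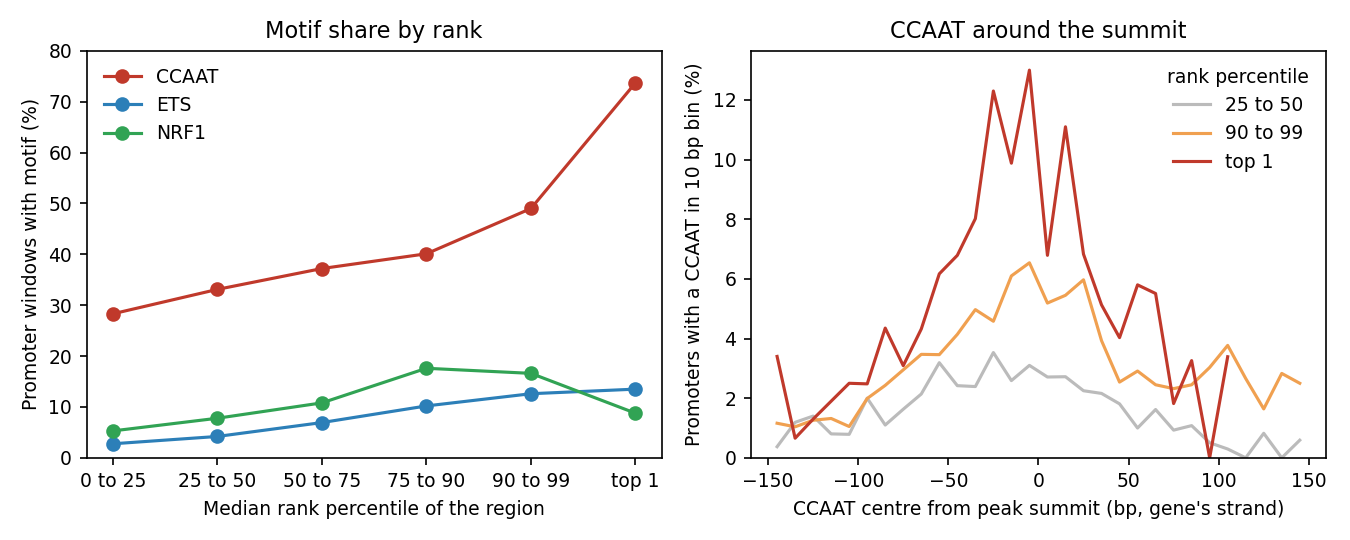
Promoters in narrow regions, 1 start a region. Left, lines give the percentage of windows with CCAAT, ETS or NRF1 letters by median rank percentile, and CCAAT goes from 28.3 to 73.7. Right, lines give the percentage of promoters with a CCAAT in each 10 bp bin around the peak summit for 3 rank classes, highest near the summit in the top 1.

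Genes of cell division and zinc finger genes were looked at because several had been seen at the top of the list. Their ranks and CCAAT shares therefore restate that choice in part, and they are given as a description only. Of 32 cell division genes, 29 had a start in the promoter table, and 25 of these had it in a narrow and 3 in a wide region. The 24 members that carry such a gene as the start nearest the summit had a median rank of 98.6, a range of 48.4 to 100, and CCAAT letters in 23. Spc25 and Bub1, which act at the kinetochore and the spindle checkpoint, had median ranks of 100 and 99.8, the replicative helicase gene Mcm3 99.9, Cdk1 99.7 and the mitotic topoisomerase gene Top2a 98.9. Mcm2, with 48.4, was the lowest. Zinc finger genes (symbols starting with Zfp, Zscan or Zkscan) were the nearest start in 206 members, with a median rank of 88.9, and made up 14.0% of the top 1% against 2.8% of all members with a start. CCAAT letters were in 48.1% of their windows, and 30 of the 206 windows share a 30-base run with another promoter.

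Housekeeping genes had their starts in always-open regions without exception in the lists examined, and mostly in narrow ones. Over 16457 protein-coding genes of the promoter table, 39.0% had a start in a narrow region but none in a wide one, and 20.0% had one in a wide region. Narrow starts were found for 16 of 19 ribosomal protein genes, 18 of 24 proteasome genes, 18 of 26 spliceosome genes and 16 of 21 respiratory chain genes in the table, and the other genes of these lists had wide ones. Genes of general transcription and chromatin architecture had 14 wide and 8 narrow starts. The highest-ranked members at these lists were those of Cox7c, a subunit of cytochrome c oxidase, with ranks of 98.7 to 99.9 in the frontal cortex and 99.1 to 99.7 in the hippocampus, and Psmc4, an ATPase of the proteasome, with 97.9 or more in every library.

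Marker genes of brain cell types were also present. Inhibitory neuron genes had 11 narrow and 0 wide starts among 15, including those of Gad1 and Gad2, the enzymes of GABA synthesis. Pan-neuronal genes had 6 narrow and 4 wide starts among 12, excitatory neuron genes 8 and 4 among 15, astrocyte genes 7 and 2 among 16, oligodendrocyte lineage genes 8 and 2 among 13, and microglial genes 6 and 2 among 13. Endothelial and mural genes had 3 narrow and 0 wide starts among 15, and 4 were open in no library. None of 19 Hox and germline genes had an always-open start, and 13 were open in no library. At Adarb2, expressed in interneurons, the member at the start ranked from 83.2 to 96.9 in the hippocampus and from 93.4 to 98.9 in the frontal cortex. At Irf8, a transcription factor of microglia, the ranges were 74.4 to 95 and 72.3 to 88.4.

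Among response genes, 12 of 17 glucocorticoid-response starts were narrow, including Fkbp5, Sgk1 and Per1. The Fkbp5 member ranked from 57.2 to 88.3 in the hippocampus and from 51.9 to 92.9 in the frontal cortex. Interferon-response genes had 8 narrow starts among 16, with Stat2 ranking from 91.0 to 99.1 over all libraries. Acute inflammatory and NF-kB genes had 6 narrow and 3 wide starts among 21, and 10 were open in some libraries only. Tnfaip3, a feedback inhibitor of NF-kB, ranked from 68.7 to 91.6. Immediate early genes had 7 narrow and 7 wide starts among 16. At Nr4a2, a nuclear receptor gene induced by activity, the member ranked from 57.3 to 89.3 in the hippocampus and from 86.9 to 97.6 in the frontal cortex.

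Of 919 microRNA hairpins in the RefSeq table on these chromosomes, 58 lay wholly inside a narrow region and 41 inside a wide one. The Mir344 family, a cluster on chromosome 7, contributed 10 of the 58, out of 13 hairpins in the table, all on the minus strand between 61683124 and 62085310 (GRCm38). In 10 of 10 the median summit lay upstream of the hairpin, 92.0 to 181 bp from its middle, and in 7 of them 134 to 146 bp from it. The 3 hairpins with no narrow member, Mir344e, Mir344h-1 and Mir344h-2, lie next to each other within the cluster. The copies resemble one another, and how reads were divided between them is not known.
Mature sequences from the 5 members of highest median rank (Mir344c, Mir344b, Mir344-2, Mir344 and Mir344d-3) show what they share, with the seed (bases 2 to 8) in capitals and 1 line for miR-344-3p, which Mir344 and Mir344-2 both give. The 5p arms of 7 hairpins share the seed GUCAGGC, and the 3p arms of Mir344, Mir344-2 and Mir344c share GAUCUAG.
miR-344c-5p: aGUCAGGCugcuggcuagaguac
miR-344b-5p: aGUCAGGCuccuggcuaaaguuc
miR-344d-3-5p: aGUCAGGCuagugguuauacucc
miR-344c-3p: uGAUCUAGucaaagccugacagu
miR-344-3p: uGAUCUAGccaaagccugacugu

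Ranks within the cluster differed. The Mir344c member ranked from 98.3 to 99.8 in the hippocampus and from 97.0 to 99.8 in the frontal cortex, and the Mir344d-2 member from 40.5 to 68.5 and from 37.6 to 72.1. The mean rank was higher in the hippocampus at Mir344g by 5.89 points (limma, adjusted p = 7.7e-05), at Mir344d-3 by 6.0 points (adjusted p = 0.000745), at Mir344d-1 by 18.4 points (adjusted p = 0.00178), at Mir344-2 by 2.76 points (adjusted p = 0.00274) and at Mir344b by 1.59 points (adjusted p = 0.0454). These are 5 of 10, against 55.1% of all narrow regions that differed between the tissues. The other 5 members did not pass the threshold, though Mir344 and Mir344i did with the animal as a block (adjusted p = 0.0347 and 0.0422). Other small RNA genes were touched at different rates: 116 of 391 tRNA genes (29.7%) overlapped a narrow region and 106 (27.1%) a wide one, against 22 and 24 of 931 snRNA genes and 41 and 5 of 1286 snoRNA genes.

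Being open in every library did not mean being equally strong in both tissues. Of all 92286 always-open regions, 53.7% differed in rank between hippocampus and frontal cortex (limma on normal scores of the rank, Benjamini-Hochberg adjusted p under 0.05). Of the 86457 narrow regions, 47636 passed (55.1%), 23288 with the higher rank in the hippocampus and 24348 in the frontal cortex, a share close to that background. The median size of the difference among the narrow regions called was 19.2 percentile points. Ranks of the 11 hippocampus and 11 frontal cortex libraries did not overlap at all in 10741 narrow regions (12.4%). The share was 11.9% of all always-open regions, which again are mostly the narrow ones. Rank correlations (Spearman) over the narrow regions were 0.769 to 0.912 between libraries of 1 tissue and 0.535 to 0.686 between tissues. These describe the libraries and share the same regions.

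Members with a start inside were called less often than those away from genes. Of 7360 narrow regions with a start, 2352 (32.0%) were called, with 44.3% of those near another gene end, 57.8% of those in gene bodies and 58.4% of those elsewhere. The median difference among called regions was 10.2 points with a start inside, 19.3 in gene bodies and 21.3 elsewhere. Non-overlapping ranks were found in 226 of the 7360 (3.07%). The median rank was 71.8 with a start inside, 41.9 near another gene end, 41.4 in gene bodies and 54.8 elsewhere. By rank class the share called was 56.7% at 75 to 90 and 52.4% at 90 to 99, and whether rank or location goes with the lower share was not tested. Promoter members with CCAAT letters were called in 31.7% of cases and those without in 32.1%.

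The largest tissue differences moved a site from near the bottom to near the top of the list. At chr2:114048001-114048500, within the cardiac actin gene Actc1, ranks in the hippocampus were 94.7 at the lowest, 99.3 at the median and 99.8 at the highest, and in the frontal cortex 2.04, 7.15 and 21.8. The mean difference was 89.4 points (adjusted p = 7.56e-14). At chr8:28770501-28771000, within the axon guidance receptor gene Unc5d, the hippocampal values were 95.4, 98.3 and 99.6, and the cortical ones 1.72, 7.79 and 21.9. The other 8 of the top 10 towards the hippocampus lay within Cep152 and Hecw1, at the start of the long noncoding RNA gene C630028M04Rik, or far from coding genes, the nearest being Adgrl3, Txnl1, Gli3, Id4 and Gask1b. Mean differences in these 10 were 84.4 to 89.4 points. The groups did not overlap in any, which the choice of the largest differences makes likely.

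In the other direction, chr16:70073501-70074000, 209739 bp from Speer2, had ranks in the hippocampus of 1.17, 6.23 and 14.0 and in the frontal cortex of 85.6, 95.6 and 97.5 (adjusted p = 5.32e-14). A member within Plxna4, a semaphorin co-receptor gene (chr6:32359501-32360000), had 0.422, 3.61 and 28.0 against 83.0, 91.3 and 93.5. Other members of the top 10 towards the cortex lay within Hs6st3 and Nbas, 239 bp from Pyurf, or nearest to Serpinb8, Prkd1, Pabpc2, Cdh12 and Magi3, with mean differences (hippocampus minus frontal cortex) of -87.9 to -81.2 points. No hippocampal and cortical libraries overlapped in any of these 10, which were chosen in the same way.

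**Figure D4:**
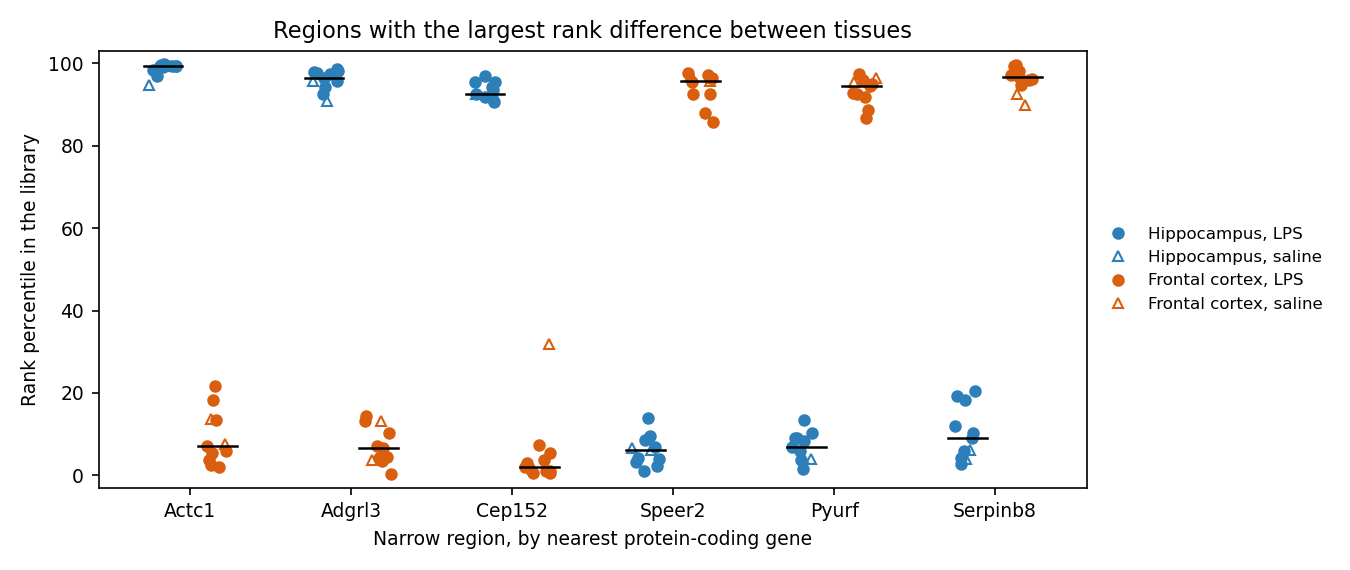
Points give the rank percentile (0 to 100 among 92286 always-open regions) of each library at 6 narrow regions, filled circles for LPS, open triangles for saline, black lines for the median of 11 libraries. The regions were chosen for their large tissue difference. The 3 on the left are high in the hippocampus and the 3 on the right in the frontal cortex, with no overlap between tissues.

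Members at tissue marker genes ranked in either direction. The narrow region at the start of Prox1, known from dentate granule cells, ranked at 6.99 to 32.5 in the hippocampus and 26.7 to 56.6 in the frontal cortex (adjusted p = 1.52e-05). At the start of Rorb, known from cortical layers, the ranks were 95.9 to 98.7 in the hippocampus and 68.2 to 93.7 in the frontal cortex (adjusted p = 1e-07). At Calb1, also in the hippocampal list, the member had a mean rank of 94.2 in the hippocampus and 88.6 in the frontal cortex (adjusted p = 0.0046), and at Wfs1 of the same list the means were 90.9 and 93.3 (adjusted p = 0.0639). In the bodies of the 8 hippocampal genes, 11 of 62 narrow members were called higher in the hippocampus and 26 in the frontal cortex. In those of the 7 cortical genes, 11 and 16 of 42 were called. These are 59.7% and 64.3% called in either direction, against 57.8% of narrow regions in gene bodies away from starts and gene ends. Of the latter, 27.2% were higher in the hippocampus and 30.6% in the frontal cortex. The list counts may also hold members at starts or gene ends. The bins open in 1 tissue only, given above, were mostly hippocampal around the hippocampal genes and nearly even around the cortical ones.

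By cell type list, members in gene bodies were called in 60.5% of 339 at pan-neuronal genes, 63.4% of 191 at excitatory neuron genes and 59.6% of 99 at astrocyte genes. The share was 50.0% of 58 at inhibitory neuron genes, 47.2% of 36 at microglial genes, 40% of 70 at oligodendrocyte lineage genes and 40% of 40 at endothelial and mural genes. Beside these stands the 57.8% of narrow regions in gene bodies away from starts and gene ends. The pan-neuronal, excitatory neuron and astrocyte shares lie near it. Of all narrow regions with a start inside 32.0% were called, and of those near another gene end 44.3%. The lists may hold such members, and whether location goes with their lower shares was not tested. At ribosomal protein genes 10.7% of 28 were called. At excitatory neuron genes 46 were higher in the hippocampus and 75 in the frontal cortex, and at astrocyte genes 29 and 30. The member named for the astrocyte gene Aldoc lies within 1 kb of an end of that gene, but the start inside it is that of Pigs. Its mean difference (hippocampus minus frontal cortex) was -4.68 points and did not pass (adjusted p = 0.0829). The start of Slc1a3, the glial glutamate transporter gene, was open in some libraries only. Its highest-ranked member within 1 kb of a gene end lay 694 bp outside the gene, at the long noncoding RNA gene Gm31340. That member ranked from 66.9 to 86.1 in the hippocampus and from 12.4 to 53.3 in the frontal cortex (adjusted p = 1.77e-06). Among all narrow regions the median rank was 71.8 with a start inside but 41.9 near another gene end. Gene-end members, defined by a protein-coding gene end within 1 kb, include both kinds. They stood above distal ones by 14.9 ± 2.18 percentile points in the hippocampus and 15.6 ± 2.1 in the frontal cortex (SD, n = 11). The difference between the tissues was -0.656 points, within the spread between animals (p = 0.412, two-sided exact permutation of signs).

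Few or no single narrow regions passed the test of rank between LPS and saline, which had 2 saline animals. In the hippocampus none of the 92286 always-open regions (0.0%) passed limma at an adjusted p under 0.05 when the mean of the LPS times was compared with saline, and 8793 narrow regions (10.2%) had an unadjusted p under 0.05. In the frontal cortex 2 passed, which is 0.00217% of all always-open regions, and both were narrow and higher after LPS, with 9172 (10.6%) at an unadjusted p under 0.05. An unadjusted p under 0.05 would be met by 5% (4323 regions) if p-values were uniform, so that the low number of calls does not show that LPS changed few regions. Without saline replicate 3 the numbers were 420 narrow regions in the hippocampus and 2154 in the frontal cortex, and without saline replicate 2 they were 6 and 13. Each of these fits has a single saline library a tissue, which is assumed to vary like the LPS groups. Saline replicate 2 was the library in which a narrow region most often had its lowest rank, 6349 times in the hippocampus and 7187 in the frontal cortex, against a median of 3606 over libraries. What sets this animal apart was not tested.

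One of the 2 cortical regions, chr2:128771001-128771500, lies within Mertk, a receptor for the uptake of dying cells. Its ranks in the frontal cortex were 6.08 and 9.12 after saline, 49.0, 50.8 and 63.2 at 6 h of LPS, 50.2, 62.2 and 67.0 at 12 h, and 71.1, 80 and 80.5 at 24 h. Every LPS library lay above both saline libraries (adjusted p = 0.0328). In the hippocampus the saline libraries had 30.5 and 36.8 and the LPS libraries 26.6 to 73.1, which overlap. The second, chr5:112910501-112911000, lies within Grk3, which encodes a kinase that acts on G protein-coupled receptors. Its ranks in the frontal cortex were 1.33 and 1.38 after saline and 18.9 to 51.4 after LPS (limma, adjusted p = 0.0495). Each call was lost without some single libraries: leaving out an LPS replicate gave 0 to 2 calls.

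**Figure D5:**
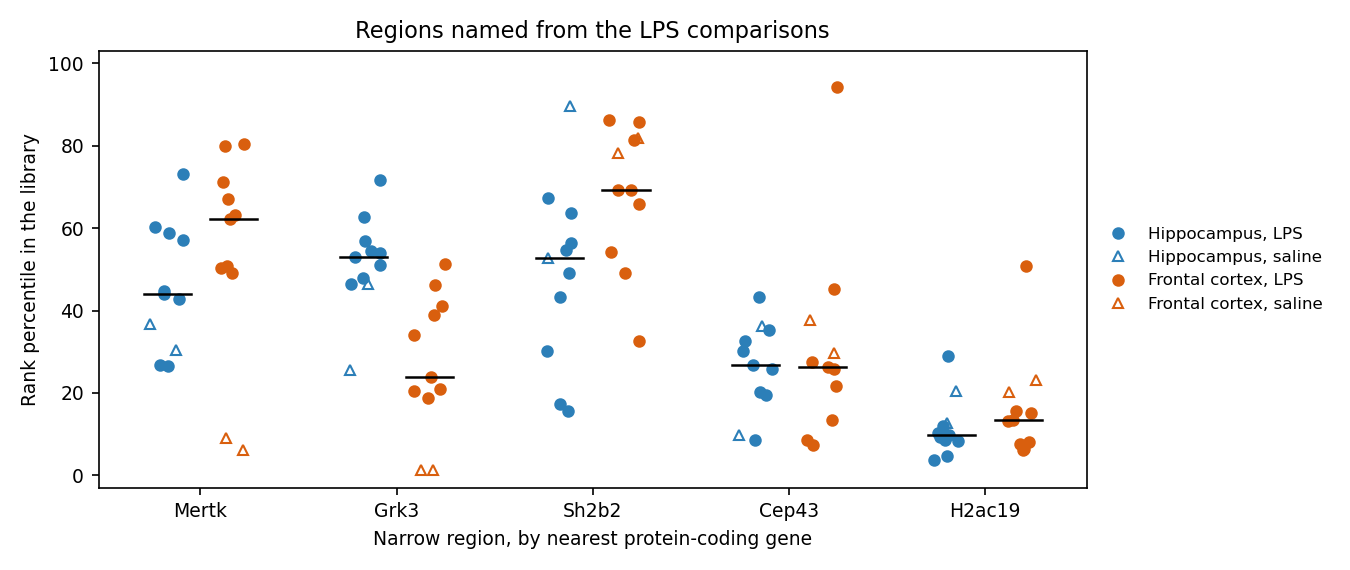
Points give the rank percentile of each library at 5 narrow regions named from the LPS comparisons, filled circles for LPS, open triangles for saline, black lines for the median of 11 libraries. At Mertk and Grk3 the 2 cortical saline libraries lie below all cortical LPS libraries, and at Cep43 and H2ac19 1 cortical LPS library stands above the others.

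The authors' deposited tables of differential windows (csaw, each LPS time against saline within a tissue) touched 1331 of the 86457 narrow regions, 56 of them in 2 or more of the 6 tables. The 6 tables share the saline libraries of each tissue. The background is the share of the 607533 bins open in 2 or more libraries that a table's regions touch by any overlap. Narrow regions hold 110313 bins. In the authors' deposited table for the frontal cortex at 24 h, higher regions touched 857 narrow bins (0.777%) against a background of 1.18%, and lower regions 127 (0.115%) against 0.138%. In the hippocampal 12 h table, also the authors' deposited one, the shares were 0.228% against 0.289% for higher and 0.25% against 0.427% for lower regions. These comparisons depended on the overlap asked for. With at least 100 bp, the cortical 24 h shares were 0.771% against 0.892% for higher and 0.112% against 0.111% for lower regions. The hippocampal 12 h shares were then 0.228% against 0.215% for higher and 0.249% against 0.302% for lower regions.

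In the authors' deposited table for the frontal cortex at 6 h, higher regions touched 61 narrow bins (0.0553%) against 0.0402%, and lower ones 26 (0.0236%) against 0.0402%. The cortical 12 h table deposited by the authors gave 1 narrow bin higher (0.000907% against 0.00165%) and 11 lower (0.00997% against 0.0107%). The authors' deposited table for the hippocampus at 24 h gave 20 higher (0.0181% against 0.0234%) and 9 lower (0.00816% against 0.0193%). Their deposited table for the hippocampus at 6 h gave 0 higher (0.0% against 0.000494%) and 6 lower (0.00544% against 0.0051%). At 6 h in the frontal cortex, 18 of the 47 narrow regions in higher windows had a gene end within 1 kb (38.3%), whereas at 24 h it was 17 of 738 (2.3%). The share over all narrow regions was 11.9%, and what lies behind these 2 shares was not tested.

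Of the 5 narrow regions of lowest FDR in the cortical 6 h table, 1 LPS library was far above the others at some. At the first, 4428 bp from Gm19802 (FDR 5.01e-26 in the authors' deposited table), the ranks at 6 h of LPS were 83.1, 67.6 and 74.5 (replicates 1, 3 and 4), against 74.0 and 65.4 after saline. At the second, 170757 bp from Samd9l, they were 90.7, 50.8 and 64.2 against 29.6 and 63.4. The narrow region at the start of Cep43 (chr17:8165501-8166000), which encodes a centrosomal protein, had an FDR of 1.4e-21 in the authors' deposited table. Its ranks in the frontal cortex were 94.2, 26.3 and 7.29 at 6 h of LPS (replicates 1, 3 and 4) and 29.6 and 37.6 after saline. At the histone gene H2ac19 (chr3:96240001-96241000), with an FDR of 3.19e-20 in the authors' deposited table, the ranks were 50.9, 15.1 and 6.09 against 23.2 and 20.2. H2ac18, 1 of its neighbours and a near copy, had 55.4, 31.3 and 43.3 against 35.4 and 29.0. In each of these 5 regions LPS replicate 1 was the highest of the 6 h libraries, by the least at H2ac18 and Gm19802, and at Cep43 and H2ac19 the other 2 LPS libraries lay below both saline ones.

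One narrow region was in all 6 of the authors' deposited tables, lower after LPS in each. It lies at chr5:136224501-136225000 within Sh2b2, an adaptor of insulin and growth factor receptors. Its ranks after saline were 89.7 and 52.8 in the hippocampus and 81.8 and 78.2 in the frontal cortex. After LPS they were 15.6 to 67.2 in the hippocampus and 32.7 to 86.2 in the frontal cortex, so that the groups overlapped in both tissues. Regions in 3 of the authors' deposited tables lay within Nid1, Antxr1 and Cacna1e (lower) and Itpr2 (higher), or nearest to Hs6st1 and Rps24 (lower) and Marcks (higher).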

How the data were processed

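Peak files of 22 ATAC-seq libraries (Omni-ATAC, paired-end) and 6 tables of differential windows were analysed. Per the submitters' processing notes, MACS2 2.2.7.1, Bowtie2 2.4.4, Trim Galore 0.6.7 and FastQC 0.11.9 were used with the GRCm38 (mm10) build. The deposited peak files give, for each peak, a score, a fold enrichment (a ratio) and −log10 p and q values, each the peak caller's own value within 1 library, as called by the authors per library. The sources used here do not state the read depth. The authors' deposited csaw tables hold a number that starts at −10 times log10 of 0.05, read as −10 times log10 of the FDR, with a direction and a gene label.

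The members, gene lists, motifs and tests were chosen with earlier results of these data known. Scripts in Python 3 counted bins and ranked regions by their highest fold. limma 3.58.1 (R 4.3.3, eBayes) was fitted to normal scores of ranks over all 92286 always-open regions, with Benjamini-Hochberg adjustment over all of them; the fit was tested on simulated data. Tissues were compared with the challenge and time group as a covariate. Hippocampus and frontal cortex libraries are paired by animal per the labels; over the 11 animals their deviations from group means correlated by -0.0299 to 0.297. The named regions are the 12 of highest median rank, up to 10 per direction with the largest tissue difference, up to 3 genes per list, and those in most of the deposited tables or of lowest FDR in each. Gene names, promoters and microRNAs come from RefSeq tables of GRCm38.p6. Alternatives included other overlaps, bin origins, peak thresholds, strengths and left-out libraries. One gene of the cortical layer list is not reported here, and the list's counts leave it out.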

Additional observations from a re-analysis of the deposited data

How the results depend on the processing

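The number of narrow regions, 86457, depended on how a bin was called open. It was 46726 with an overlap of 250 bp, 56544 when only peaks reaching a −log10 q of 5 counted and 35295 with the 100000 strongest intervals of each library, while bins from position 250 gave 86613, regions open in 21 or more libraries 98473, and leaving out each library 86440 to 88517. The share with a gene end within 1 kb, 11.9%, was 22.4% at 5 kb, 17.3% with all genes, 16.2% under that q limit and 12.0% with bins from position 250. Calls between the tissues kept within 1.5 times of 47636 in every alternative run: 48340 with the animal as a block (the paired fit), 48224 with −log10 p as strength, 40619 with an overlap-weighted mean fold and 45437 to 47799 without each animal.

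LPS calls in the hippocampus, 0, ranged from 0 to 420 without each replicate and were 0 in the other alternatives. In the frontal cortex the 2 calls became 0 with LPS at 6 h only, 0 at 12 h only, 2 at 24 h only and 1 with −log10 p, and 0 to 2154 without each replicate. The tissue difference of the gene-end gap, -0.656 points, turned to 0.323 with −log10 p and was -1.22 to -0.352 without each animal. Narrow bins touched by any deposited csaw region, 1567, fell to 494 at an FDR of 0.01 or less and were 1557 with an overlap of 100 bp. The background shares fell at that overlap, and some comparisons with them changed side, as given above. The CCAAT share of the top 1%, 73.7%, was 53.2% for CCAATC and 72.4% without promoters that share a 30-base run, both chosen after seeing the data. The causes were not tested. Peak files hold no counts, so that depth and counting error behind a rank are not known.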
